A study of Homo sapiens with 18 samples.

Results

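Nucleotide excision repair cuts out bulky DNA lesions, among them the intrastrand crosslinks that platinum drugs such as oxaliplatin (OXA) form between neighbouring bases. The lesion is found either across the whole genome by XPC and the DDB1–DDB2 complex or, in transcribed strands, through a stalled RNA polymerase and ERCC6 (CSB). The helicases ERCC2 (XPD) and ERCC3 (XPB) of the transcription factor TFIIH then open the helix, XPA checks the damage, the nucleases ERCC1–ERCC4 (XPF) and ERCC5 (XPG) cut on either side of it, and polymerases and ligases fill the gap. The 10 genes described here are these core factors, *XPC*, *DDB1*, *DDB2*, *ERCC6*, *ERCC2*, *ERCC3*, *XPA*, *ERCC1*, *ERCC4* and *ERCC5*. They were chosen by name, as the non-control spots that carry one of these gene names, and make up 10 of the 36204 gene names and 19 of the 50599 probes on the array.

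RNA was measured on 18 one-colour arrays, 3 for each of 6 groups. HT29 is an established line of human colorectal adenocarcinoma cells. HTOXAR3 is a single subline of it, made resistant by long exposure to rising OXA doses. Each line was left untreated, or received OXA or OXA plus Curcumin, a plant polyphenol, for 24 h. According to the study's text, the cells labelled untreated were given the vehicle. OXA was used at 10 µM in HT29 and 30 µM in HTOXAR3, and Curcumin at 10 µM in both, so that a difference between the lines after treatment is also one between doses. Cells given Curcumin alone were not analysed here. Nothing states that the replicates came from separate cultures beyond the word biological in the methods, and p-values measure the spread between these arrays.

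The share of transcript spots flagged as well above background, meaning a signal clearly over the local background, was 52.4% on the lowest array and 63.6% on the highest. It lay between 62.3% and 63.2% on the OXA arrays of HTOXAR3, and between 62.4% and 63% on those of HT29, while the untreated arrays ranged from 52.4% to 62.2%, and the part of this in the results was not tested. Of 10 colon epithelial markers, 9 were well above background on all 18 arrays, and *CDX2*, a defining intestinal transcription factor, was so on 10. Its mean log2 intensity was 7.10 in untreated HT29 and 4.93 in untreated HTOXAR3. *VIL1* (12.06 and 10.45) and *LGALS4* (14.97 and 12.89) were also lower in HTOXAR3. *KRT8* (15.86 and 16.03), *KRT18* (18.33 and 18.47) and *KRT19* (17.73 and 17.85) were slightly higher there. None of the 4 fibroblast markers was well above background on all arrays, while 3 of 4 leukocyte probes and 2 of 3 endothelial probes were. The leukocyte probe of *CD14* had a mean log2 intensity of 10.9, and that of *PTPRC*, the pan-leukocyte marker, 6.22. The part of such signals in the results was not tested. In bulk RNA, a change in the number of cells of a kind and a change in RNA per cell cannot be told apart.

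All 10 genes were well above background on all 18 arrays through the probe used, which was the brightest one of each gene. No spot of theirs was saturated. Levels are given as log2 intensity after quantile normalization, and a difference of 1 on that scale is a doubling. Since probes differ in brightness, levels of different genes are not compared. A gene was called changed at a BY (Benjamini-Yekutieli) adjusted p below 0.05 in limma, adjusted over all gene names, together with a fold change above 1.2.

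Of the 10 genes, *ERCC1* rose between 1.77-fold and 2.23-fold and *ERCC5* fell between 1.27-fold and 1.5-fold in both lines under both treatments. *ERCC6* rose with the combination in both lines, and *DDB2* rose in HT29. The other 6 were not called in any treatment comparison. The RefSeq bases just upstream of the start sites of *ERCC1* and *ERCC5*, which changed in both lines, follow, with those of *ERCC2*, the other of the 10 genes on chromosome 19, whose window held both motifs too and which was not called in any comparison. Each is the 250 bases before the start on its own strand in GRCh38.p14, read toward the gene, and capitals mark GC boxes (GGGCGG) and CCAAT boxes (CCAAT) on either strand. The window of *ERCC1* lies at chr19:45423529-45423778 on the minus strand, that of *ERCC2* at chr19:45370574-45370823 on the minus strand, and that of *ERCC5* at chr13:102845782-102846031 on the plus strand.
ERCC1: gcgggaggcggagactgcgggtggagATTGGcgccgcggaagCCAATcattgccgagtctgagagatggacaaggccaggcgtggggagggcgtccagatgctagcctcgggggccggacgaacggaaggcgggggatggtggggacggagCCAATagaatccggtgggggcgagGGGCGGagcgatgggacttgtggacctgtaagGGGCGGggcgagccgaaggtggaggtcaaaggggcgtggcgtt
ERCC2: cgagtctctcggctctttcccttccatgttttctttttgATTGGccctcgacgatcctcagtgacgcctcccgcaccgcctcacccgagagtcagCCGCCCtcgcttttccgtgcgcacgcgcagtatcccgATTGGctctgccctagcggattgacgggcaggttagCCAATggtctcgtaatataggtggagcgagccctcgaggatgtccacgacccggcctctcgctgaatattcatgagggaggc
ERCC5: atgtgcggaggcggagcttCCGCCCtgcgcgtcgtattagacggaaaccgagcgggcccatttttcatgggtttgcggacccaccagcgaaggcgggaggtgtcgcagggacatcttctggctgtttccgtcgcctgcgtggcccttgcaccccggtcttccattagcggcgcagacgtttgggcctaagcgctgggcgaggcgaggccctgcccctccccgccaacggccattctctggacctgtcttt

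The *ERCC1* window held 2 GC boxes and 3 CCAAT boxes, the *ERCC2* window 1 GC box and 3 CCAAT boxes, and the *ERCC5* window 1 GC box. Of all 35116 windows of this length in the table, 42.6% held a GC box and 32% a CCAAT box. The table lists 14 windows for the 10 genes, including a further 2 starts of *ERCC1* that held neither motif, and the arrays do not tell which start was used. A search on both strands for an AP-1 site (TGANTCA), an E-box (CACGTG), a p53 half-site and a κB site found the E-box in 1 window of *ERCC6*, the κB site in that of *ERCC3*, and neither of the other motifs in any of the 14. These motifs stood in 6.57%, 6.34%, 5.57% and 9.96% of all windows, respectively. No GC box overlapped a CCAAT box in the printed windows, and a motif here is a match of letters only.

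*XPC*, the sensor of distorted DNA, was not called in any comparison. It read 8.70, 8.52 and 8.96 in untreated HT29, 9.04, 9.10 and 9.13 with OXA, and 8.66, 8.67 and 8.81 with OXA plus Curcumin. In HTOXAR3 it read 8.60, 8.77 and 8.92, then 8.89, 8.99 and 9.03, and then 8.52, 8.64 and 8.50 in the same order. The combination arrays lay below all OXA arrays in both lines. The addition of Curcumin to OXA gave -0.38 in HT29 (95% interval -0.60 to -0.15) and -0.41 in HTOXAR3 (95% interval -0.64 to -0.19), with BY adjusted p-values of 0.331 and 0.144 that missed the threshold. Among the alternatives, the difference in HTOXAR3 was called with the slide as a block and with the Benjamini-Hochberg adjustment. That in HT29 was called with the latter only.

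*DDB1*, the adaptor that links DDB2 to a ubiquitin ligase, was the only one of the 10 genes called between the untreated lines. It read 14.03, 14.02 and 14.15 in HT29 and 13.67, 13.76 and 13.82 in HTOXAR3, without overlap. It was 1.25-fold lower in HTOXAR3 (log2 difference -0.32, SE 0.064, BY adjusted p = 0.0261). The call was lost without any one of 5 of these 6 arrays, all but HTOXAR3 replicate 3 (log2 differences -0.34 to -0.28, BY adjusted p between 0.0599 and 0.169). With OXA, *DDB1* read 14.21, 14.24 and 14.35 in HT29 and 13.99, 14.10 and 14.03 in HTOXAR3. With OXA plus Curcumin it read 14.32, 14.23 and 14.20 in HT29 and 14.02, 13.94 and 13.95 in HTOXAR3. All treated arrays lay above the untreated ones of their line, with OXA differences of 0.20 in HT29 and 0.29 in HTOXAR3, the latter with a BY adjusted p of 0.0544 that missed the threshold. Another probe of *DDB1*, which names a different transcript and was well above background on 17 arrays, gave -0.26 between the untreated lines. Its OXA differences ran the other way from those of the probe used, at -0.37 in HT29 and -0.20 in HTOXAR3 (SE 0.18), and the mean of both probes gave -0.09 and 0.05.

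*DDB2* codes for the subunit of the damage sensor that binds the lesion. It read 11.89, 12.02 and 11.81 in untreated HT29, 12.27, 12.41 and 12.27 with OXA, and 12.15, 12.33 and 12.31 with OXA plus Curcumin. In HTOXAR3 it read 12.17, 12.12 and 12.02 untreated, 12.05, 12.20 and 12.10 with OXA, and 11.95, 11.98 and 11.85 with OXA plus Curcumin. Treated arrays were above all untreated ones in HT29, while in HTOXAR3 the OXA arrays overlapped with the untreated ones and the combination arrays were below them. OXA raised *DDB2* 1.33-fold in HT29 (log2 difference 0.41, SE 0.076, BY adjusted p = 0.00981) and the combination 1.28-fold (0.36, BY adjusted p = 0.0235). The differences in HTOXAR3 were 0.01 (95% interval -0.15 to 0.18) and -0.17 (95% interval -0.34 to -0.01), and were not called. The difference between the lines was -0.40 for OXA (BY adjusted p = 0.804) and -0.53 for the combination (SE 0.108, BY adjusted p = 0.163). The latter missed the threshold and had a Benjamini-Hochberg adjusted p of 0.0147. A second, dimmer *DDB2* probe of the same transcript, well above background on all arrays, gave only 0.07 (SE 0.07) with OXA and 0.09 with the combination in HT29, so that the probes disagree about the rise. In HTOXAR3 it gave -0.10 and -0.29. The OXA call was lost without untreated replicate 3 or OXA replicate 2 (BY adjusted p = 0.0607 and 0.0687). The combination call was lost without untreated replicate 1 or 3 or combination replicate 2 or 3 (0.103 to 0.141) and with the slide as a block (0.0842), and within slides its difference was 0.23 and 0.50.

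*ERCC6* (CSB), the factor that couples repair to transcription, rose in HT29 and was highest with the combination. It read 7.12, 7.32 and 7.34 in untreated HT29, 7.83, 7.88 and 7.55 with OXA, and 8.26, 8.14 and 8.08 with OXA plus Curcumin. In HTOXAR3 it read 7.30, 7.06 and 7.10 untreated, 7.44, 7.29 and 7.16 with OXA, and 7.73, 7.62 and 7.78 with OXA plus Curcumin. The 3 HT29 groups did not overlap, whereas in HTOXAR3 the untreated and OXA arrays did. The combination raised *ERCC6* 1.87-fold in HT29 (log2 difference 0.90, SE 0.107, BY adjusted p = 0.000158) and 1.47-fold in HTOXAR3 (0.56, BY adjusted p = 0.0111). OXA alone raised it 1.41-fold in HT29 (0.49, BY adjusted p = 0.0316), and gave 0.15 in HTOXAR3 (95% interval -0.08 to 0.38). The difference between lines was -0.35 for OXA and -0.34 for the combination, neither of which passed (BY adjusted p = 1 for both). The addition of Curcumin to OXA gave 0.41 in each line, with groups that did not overlap and BY adjusted p-values of 0.234 and 0.159 that missed the threshold. The OXA call in HT29 was lost without any one of 5 of the 6 arrays, all but OXA replicate 3 (log2 differences 0.42 to 0.54, BY adjusted p between 0.0563 and 0.194), and within slides the difference was 0.71, 0.57 and 0.20. The combination call in HTOXAR3 was lost without untreated replicate 2 or 3 or combination replicate 1 or 3 (0.0543 to 0.07). The only probe of this gene lies at chr10:50666806-50666865 in GRCh37.

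The genes of the TFIIH helicases and *XPA* varied least, with group means that spanned 0.28 for *ERCC2*, 0.27 for *ERCC3* and 0.29 for *XPA*. Over all arrays, *ERCC2* read between 9.17 and 9.58, *ERCC3* between 10.09 and 10.53, and *XPA* between 9.85 and 10.28. The largest difference of *ERCC3* was 0.27 with OXA in HT29 (BY adjusted p = 0.0553). It was called under 4 of 16 alternatives, among them the slide as a block. The largest of *ERCC2* was 0.28 with the combination in HTOXAR3 (BY adjusted p = 0.155). *XPA* differed by -0.18 and -0.22 on addition of Curcumin in HT29 and HTOXAR3 (BY adjusted p = 0.658 and 0.229). A second *XPA* probe, which names a non-coding transcript of the gene, gave -0.04 and 0.15 for these.

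*ERCC1* codes for the partner that ERCC4 (XPF) needs to cut DNA. In untreated HT29 its log2 intensity was 12.06, 12.20 and 12.14, and with OXA it was 13.27, 13.26 and 13.34. With OXA plus Curcumin it was 13.17, 13.20 and 13.24. All treated HT29 arrays thus lay about a full log2 unit above all untreated ones. In HTOXAR3 the untreated arrays read 12.34, 12.36 and 12.36, the OXA arrays 13.39, 13.57 and 13.38, and the OXA plus Curcumin arrays 13.14, 13.21 and 13.18. No treated array overlapped with an untreated one in either line. OXA raised *ERCC1* 2.23-fold in HT29 (log2 difference 1.16, SE 0.059, BY adjusted p = 6.51e-08) and 2.13-fold in HTOXAR3 (1.09, SE 0.059, BY adjusted p = 4.7e-07). The difference between these responses was -0.06 on the log2 scale (95% interval -0.24 to 0.12) and did not pass the test. With OXA plus Curcumin the rise was 2.1-fold in HT29 (BY adjusted p = 1.23e-07) and 1.77-fold in HTOXAR3 (BY adjusted p = 1.72e-06). The difference between the lines in this response was -0.245 (95% interval -0.43 to -0.06, BY adjusted p = 1) and did not pass the test. The addition of Curcumin to OXA went with a difference of -0.09 in HT29 and -0.27 in HTOXAR3, the latter with a BY adjusted p of 0.0591 that missed the threshold. The basal difference between the untreated lines was 0.22 (BY adjusted p = 0.188). A second *ERCC1* probe, also on chromosome 19, gave log2 differences of 1.19 and 1.16 with OXA, and 1.11 and 0.77 with OXA plus Curcumin, in HT29 and HTOXAR3, respectively. These 4 rises were called under every alternative processing. Among gene names well above background on all arrays, the range of the *ERCC1* group means, 1.31, stood at the 88.1 percentile.

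*ERCC4* (XPF) is the catalytic member of that nuclease. Its probe was dim, between 6.36 and 7.42 over the 18 arrays, and no comparison was called. In untreated HT29 it read 6.37, 6.36 and 6.62, and in untreated HTOXAR3 6.82, 7.42 and 6.80. The groups did not overlap, and the difference was 0.57 (SE 0.145, BY adjusted p = 0.131). Without HTOXAR3 untreated replicate 2, the highest array, it was 0.36. That array also had the lowest share of spots well above background (52.4%). The second *ERCC4* probe gave 0.54 for the same comparison. The OXA response was 0.15 in HT29 (95% interval -0.17 to 0.46) and 0.08 in HTOXAR3 (95% interval -0.23 to 0.39), both intervals ending below the *ERCC1* rise.

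*ERCC5* (XPG), which makes the cut on the other side of the lesion, fell in both lines. Untreated HT29 read 11.40, 11.40 and 11.58, OXA 10.81, 10.87 and 10.98, and OXA plus Curcumin 11.21, 11.03 and 11.12. Untreated HTOXAR3 read 11.70, 11.61 and 11.69, OXA 11.02, 11.08 and 11.14, and OXA plus Curcumin 11.34, 11.19 and 11.28. The OXA arrays were the lowest in each line, with the combination between them and the untreated arrays and no overlap. OXA lowered *ERCC5* 1.49-fold in HT29 (log2 difference -0.57, SE 0.074, BY adjusted p = 0.000417) and 1.5-fold in HTOXAR3 (-0.59, SE 0.074, BY adjusted p = 0.00067). OXA plus Curcumin lowered it 1.27-fold in HT29 (BY adjusted p = 0.0269) and 1.31-fold in HTOXAR3 (BY adjusted p = 0.0101). The difference between lines in the OXA response was -0.01 (95% interval -0.24 to 0.21). The addition of Curcumin to OXA gave 0.23 in HT29 and 0.20 in HTOXAR3, neither of which passed (BY adjusted p = 0.658 and 1). The probe used is printed in 10 spots per array, which were averaged, and lies at chr13:103527950-103528009 in GRCh37. The 3 other *ERCC5* probes were well above background on 16, 9 and 1 of the 18 arrays. When all 4 were averaged, the difference was -0.33, -0.21, -0.11 and 0.07 in the order above, with no call left and the last one turned in sign. For OXA plus Curcumin, the call was lost in HT29 without untreated replicate 1 or 3 or combination replicate 2 or 3 (BY adjusted p between 0.0504 and 0.171), and in HTOXAR3 without untreated replicate 1 or 3 or combination replicate 2 (0.0541 to 0.069).

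**Figure D1:**
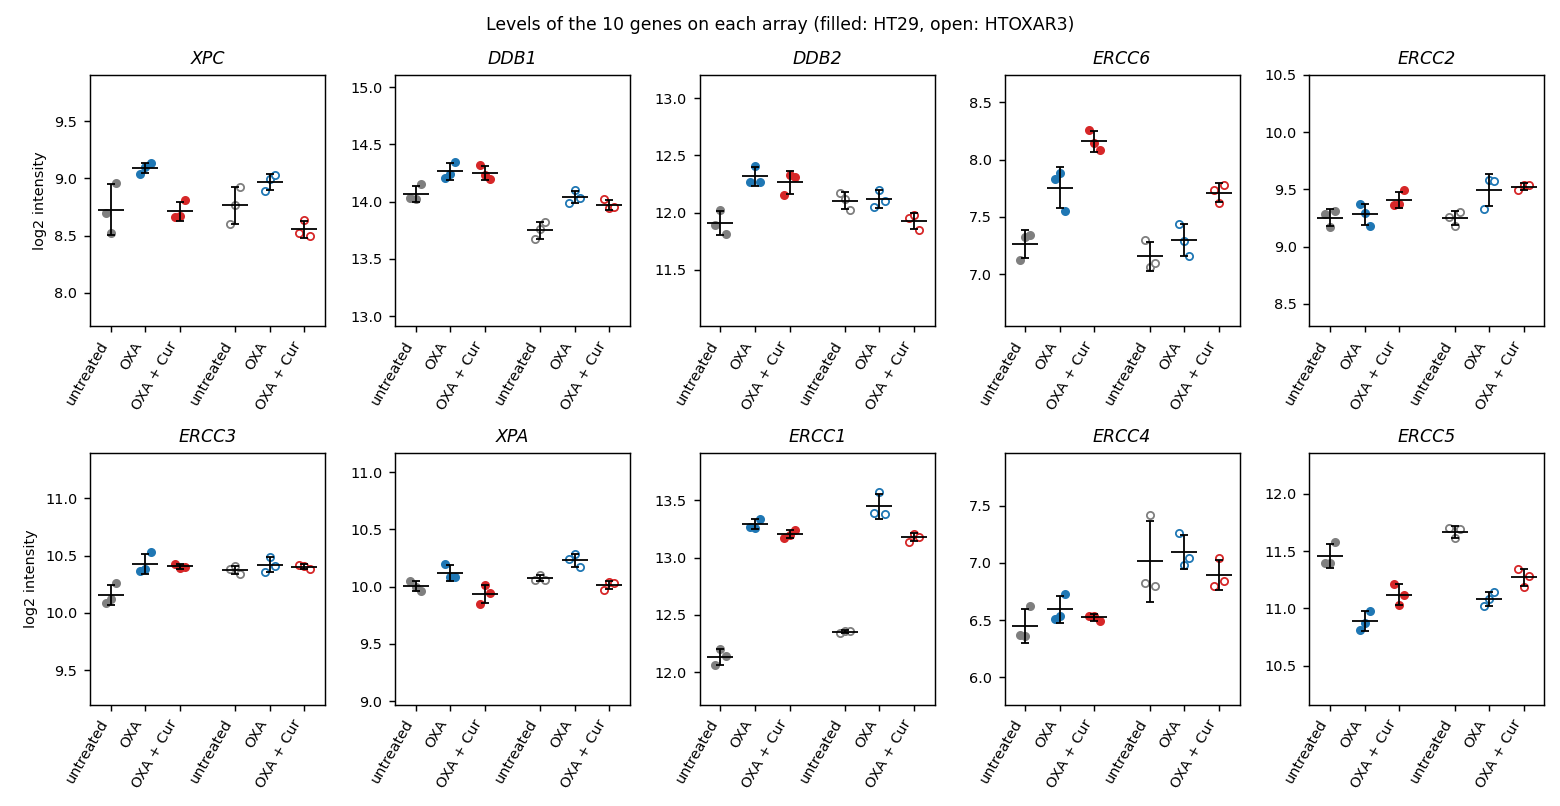
Log2 intensity of the 10 genes on each array (points; filled, HT29; open, HTOXAR3) by treatment, with the mean (bar) and SD (whiskers) of 3 arrays, every panel spanning the same height. The treated *ERCC1* arrays lie at 13.14 or higher and the untreated ones at 12.36 or lower, while *ERCC5* is lowest with OXA in each line.

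**Figure D2:**
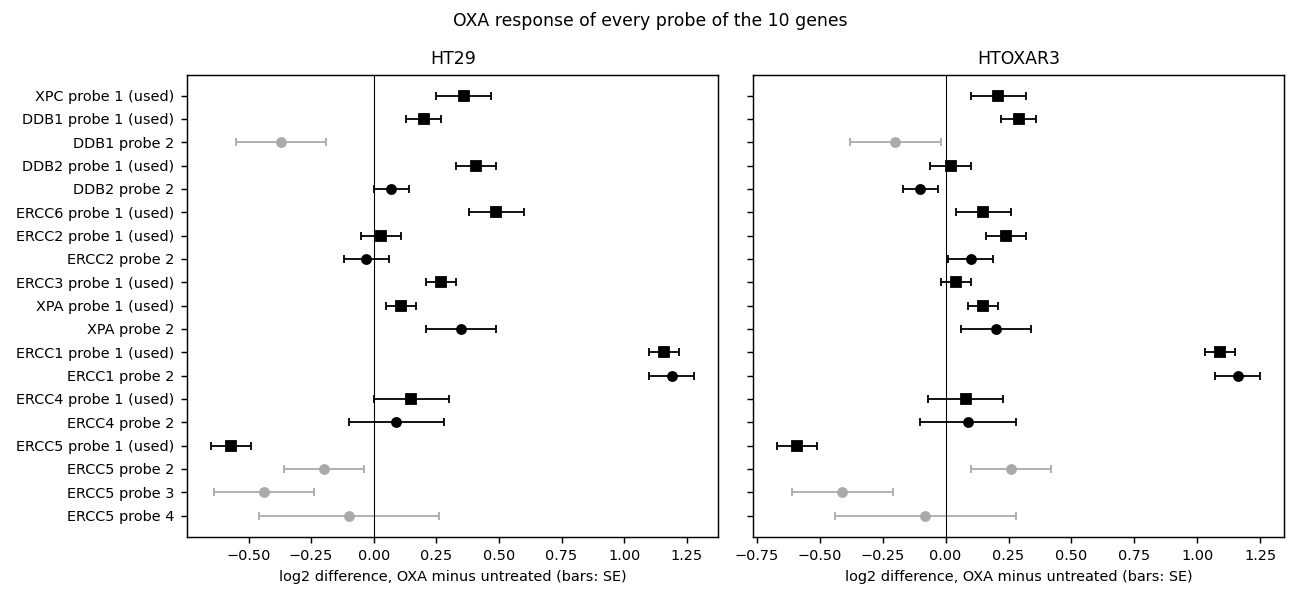
Log2 difference between OXA and untreated arrays for each of the 19 probes of the 10 genes, with SE, in HT29 and HTOXAR3. Squares are the probes used, circles the others, and grey marks probes not well above background on all 18 arrays. Both *ERCC1* probes lie above 1, and the *DDB2* probes differ in HT29 (0.41 and 0.07).

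Counted together, 4 of the 10 genes were called for the OXA response of HT29 (*ERCC1*, *ERCC6* and *DDB2* up, *ERCC5* down), where 15.9% of all gene names were called. For OXA in HTOXAR3 2 were called, *ERCC1* and *ERCC5*, beside 10.2% of all names. The combination called the 4 genes of the OXA response in HT29, beside 18.6% of all names, and 3 in HTOXAR3 (*ERCC1*, *ERCC6* and *ERCC5*), beside 17.5%. For the basal difference 1 was called, beside 11.5%, and 2 by the Benjamini-Hochberg adjustment, beside 17%. When only the compared groups entered the model, 9 of these 14 calls were lost, and the 4 of *ERCC1* and that of *ERCC6* for the combination in HT29 were left. The share of all names called by such models was not counted. The addition of Curcumin to OXA called none of the 10 genes in either line, beside 5.53% of names in HT29 and 8.83% in HTOXAR3. An unadjusted p below 0.05 in limma was found for 4 and 6 of them, beside 22.2% and 25.6% of names, and the Benjamini-Hochberg adjustment called 2 and 3, beside 10.2% and 14.2%. The difference between the lines called none for OXA, the combination or the addition of Curcumin, beside 1.01%, 0.856% and 0.135% of names. There, 3, 4 and 1 of the 10 had an unadjusted p below 0.05 in limma, beside 13.7%, 14.4% and 9.74% of names. The Benjamini-Hochberg adjustment called 0, 1 and 0, beside 3%, 3.44% and 0.892%. All shares of names called, here and below, are over the 36204 gene names, of which 17406 were well above background on all 18 arrays. The 10 genes were among the latter, and the share called among those 17406 names was not counted.

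**Figure D3:**
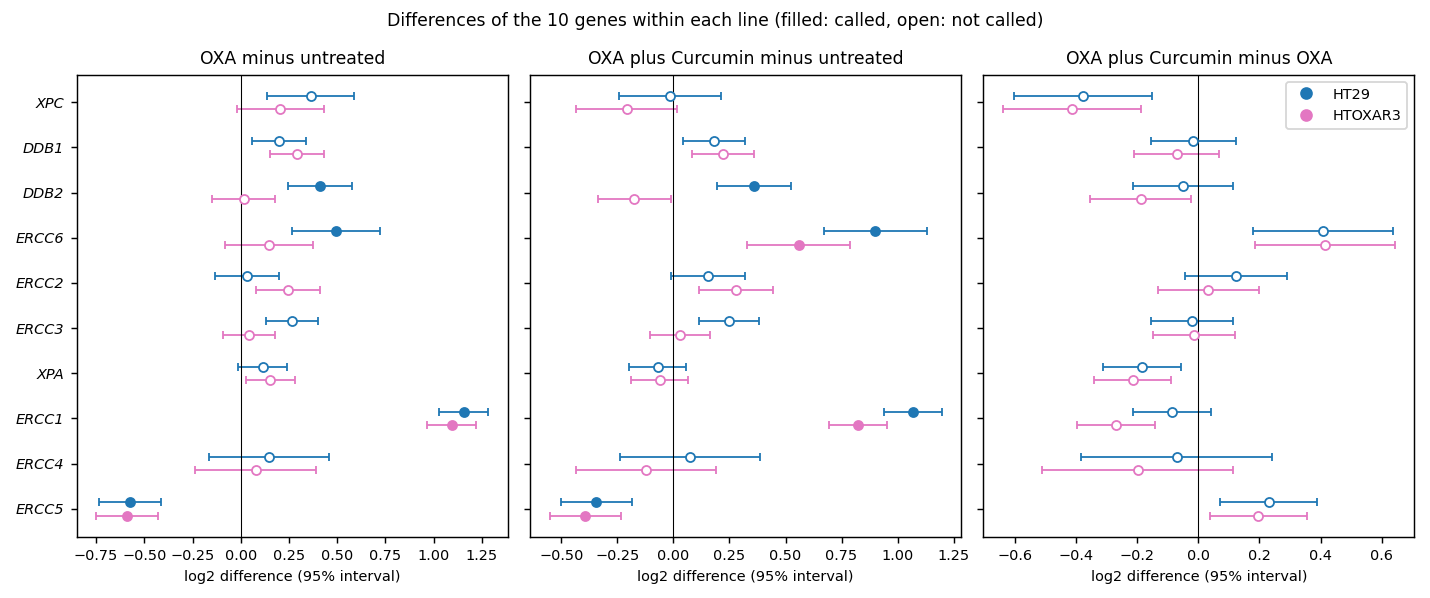
Log2 difference of the 10 genes for OXA minus untreated, OXA plus Curcumin minus untreated, and OXA plus Curcumin minus OXA, in HT29 (blue) and HTOXAR3 (pink). Bars are 95% intervals of the limma fit, and filled points were called. *ERCC1* lies between 0.82 and 1.16 and *ERCC5* between -0.59 and -0.34 in the first and second panels, and no point is filled in the last.

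The median log2 difference of the 10 genes was 0.23 with OXA in HT29 and 0.15 in HTOXAR3, where that of all gene names was -0.01 and 0.01. The lines share no arrays, and all 10 genes had the same sign of the OXA difference in both, 9 of them positive. Among gene names well above background on all arrays, 79.5% had the same sign in both lines. For the combination, 8 of the 10 genes had the same sign in both lines, against 81.8% of those names. On addition of Curcumin, a comparison that shares the OXA arrays with the first, all 10 did, against 76.3%. The medians for that addition were -0.04 and -0.13, and 7 of the 10 were negative in each line.

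Genes with group means most like those of *ERCC1* over the 6 groups, among 3822 gene names well above background on all arrays with a range of 1 or more, were *UCN* (Pearson r = 0.9986), *NAB2* (0.9957) and *ZFYVE28* (0.9938). For *ERCC6* they were *DNAJB2* (0.9928), *CYP27A1* (0.9893) and *DUSP1* (0.9858). The 6 points share the arrays and the normalization, and r is a description.

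Of 42 further genes of the pathway, 41 were found by name. These were well above background on all arrays, while the shares set beside theirs are over all names, detected or not. With OXA, 10 were called up and 3 down in HT29 (31.7% of the list, beside 15.9% of all gene names), and 10 up and 1 down in HTOXAR3 (26.8% beside 10.2%). With the combination, 5 were up and 8 down in HT29 (31.7% beside 18.6%), and 2 up and 7 down in HTOXAR3 (22% beside 17.5%). On addition of Curcumin to OXA, 1 was up and 10 down in HT29 (26.8% beside 5.53%), and 2 up and 11 down in HTOXAR3 (31.7% beside 8.83%). Between the untreated lines, 7 were up and 3 down in HTOXAR3 (24.4% beside 11.5%), led by *GTF2H4* (0.77) and *MNAT1* (0.67) of TFIIH and *POLE2* (0.48), a polymerase ε subunit. The medians of the 41 genes were 0.14 and 0.12 with OXA, and -0.18 and -0.15 on addition of Curcumin, in HT29 and HTOXAR3, beside -0.02 for all names on addition of Curcumin in each line.

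The 15 genes that fill the gap (*PCNA*, clamp loader and polymerase subunits) held many of these calls. With OXA they held 7 of the 13 calls of the list in HT29 and 7 of 11 in HTOXAR3. On addition of Curcumin they held 9 of 11 in HT29 and 7 of 13 in HTOXAR3. The paper states that HT29 cells accumulate in S phase after 24 h of OXA, and the part of this in the calls was not tested. With OXA, 7 rose in each line and none was called down (46.7% of the 15 in each line, beside 15.9% of all names in HT29 and 10.2% in HTOXAR3), the largest being *POLD1*, the catalytic subunit of polymerase δ (0.75 in HT29 and 0.68 in HTOXAR3), and *POLD4*, its small subunit (0.74 and 0.65). On addition of Curcumin 8 fell and 1 rose in HT29 (60% of the 15, beside 5.53% of all names), and 6 fell and 1 rose in HTOXAR3 (46.7% beside 8.83%), with *POLE2* at -0.53 and -0.39, *POLD3* at -0.41 and -0.59, and *POLD1* at -0.35 and -0.50. *RFC3*, a clamp loader subunit, fell in HT29 (-0.48, BY adjusted p = 0.0244) and was at -0.22 in HTOXAR3, which was not called. *LIG1*, the ligase of replication, fell in HTOXAR3 (-0.54) and was at -0.38 in HT29, which was not called. With the combination *LIG1* fell in both lines (-0.41 in HT29 and -0.50 in HTOXAR3). *POLD4* alone of the 15 rose on addition of Curcumin, by 0.48 (BY adjusted p = 0.000505) and 0.33 (BY adjusted p = 0.00776), and with the combination it stood 2.34-fold and 1.96-fold above untreated. Of the partners of ERCC6, *USP7*, a deubiquitinase, fell with OXA by 0.85 and 0.80 on the log2 scale in HT29 and HTOXAR3, and with the combination by 0.74 and 0.78.

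*UVSSA*, which recruits TFIIH to the stalled polymerase, had the largest OXA response of the list in HT29. Its mean was 11.86 ± 0.09 (SD, n = 3) in untreated HT29, 9.93 ± 0.55 with OXA and 10.70 ± 0.07 with the combination. In HTOXAR3 these means were 11.56 ± 0.06, 11.24 ± 0.13 and 11.30 ± 0.12. It fell 3.81-fold with OXA in HT29 (log2 difference -1.93, SE 0.189, BY adjusted p = 3.25e-05) and was not called in HTOXAR3 (-0.32), and the difference between the lines was called (1.61, SE 0.267, BY adjusted p = 0.0415). With the combination it fell in HT29 (-1.16, BY adjusted p = 0.00286) and was at -0.25 in HTOXAR3, which was not called.

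**Figure D4:**
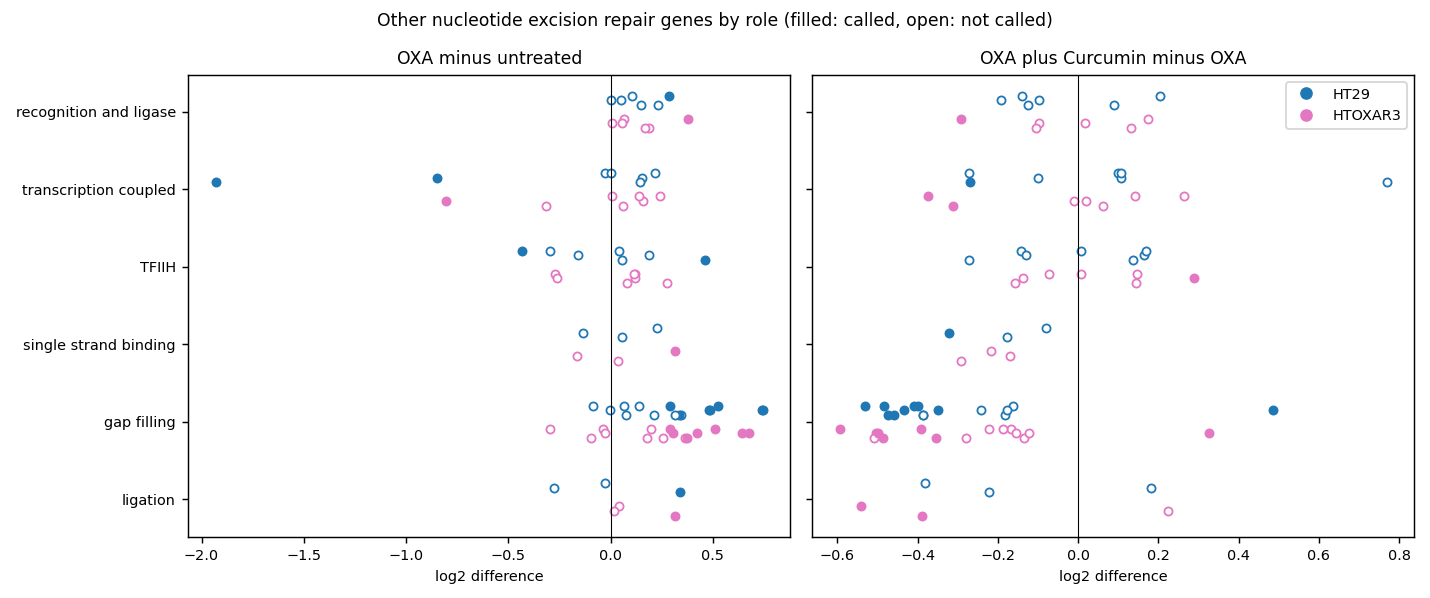
Log2 difference of the 41 further repair genes by role, for OXA minus untreated (left) and OXA plus Curcumin minus OXA (right), in HT29 (blue) and HTOXAR3 (pink). Filled points were called. The called gap-filling genes lie above 0 with OXA and, except *POLD4*, below 0 on addition of Curcumin, and the blue point farthest left is *UVSSA* (-1.93).

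*DDB2* and *XPC* are known targets of the tumour suppressor p53. Of 20 other p53 target genes, 2 were called up and 6 down with OXA in HT29 (40%, beside 15.9% of all names), and 5 up and 4 down in HTOXAR3 (45% beside 10.2%). With the combination, 6 were up and 5 down in HT29 (55% beside 18.6%), and 8 up and 5 down in HTOXAR3 (65% beside 17.5%).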

How the data were processed

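RNA from 18 samples was labelled with Cy3 and hybridised to Agilent human arrays. The authors deposited each array's Feature Extraction output, which holds the mean intensity of every spot and the median of the background around it, without normalization between arrays, and a processed intensity, background-subtracted within the array. The same deposited files hold the flags for signal over background, saturation and outliers as other columns. A further deposited value table names neither genes nor probes and was not used. The submitters' processing notes name limma, with no version.

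After the study's methods, spots were corrected with normexp (offset 0, a value the methods do not give) and quantile normalized. Control spots were left out, outlier-flagged spots set to missing and replicate spots averaged. The brightest probe stood for a gene. Probe positions are on GRCh37, from the array's annotation, without exon or UTR. A model of 6 groups was fitted to all 18 arrays with lmFit and eBayes in limma 3.58.1 (R 4.3.3 and data.table version 1.17.8), with BY adjustment over all gene names, and tested on simulated data. Figures used Python 3.11.15, pandas 2.3.3 and matplotlib 3.10.9. The precision is limited by 3 arrays per group.

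All 10 members are described. Of 42 other pathway genes (*GTF2H2* was not matched), up to the 3 largest called changes per comparison are named with their values, p53 targets are counted, and the 3 most alike genes are given for the 2 members with the widest range. A gene so named for a response is given with its values in both lines. Members and lists were chosen with earlier results of these data known. The groups came from the sample titles. Arrays lay on 3 slides, which hold 2, 8 and 8 of them, each with several groups. Same-numbered arrays correlated in their deviations from the group means for the OXA response of HT29 (0.325 to 0.413), where each pair shared a slide. For the addition of Curcumin in HT29 the correlations were 0.126 to 0.263. Elsewhere they went down to -0.222, for replicate 2 of the combination response of HTOXAR3, whose arrays lay on different slides. The labels state no pairing, and arrays with different numbers were not compared. Where a pair shares a slide, slide and number cannot be told apart. A replicate block, the slide as a block and values within slides, other background corrections, scalings, adjustments and filters, the mean of all probes, smaller models and leaving out each array were tried as alternatives.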

Additional observations from a re-analysis of the deposited data

Results flagged for a closer look

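The fall of *UVSSA* with OXA differed between the lines, with an interaction of 1.61 on the log2 scale (HTOXAR3 minus HT29; BY adjusted p = 0.0415 in limma). The 3 HT29 arrays with OXA had an SD of 0.55, against 0.09 in untreated HT29 and 0.13 in HTOXAR3 with OXA, and the OXA doses differed between the lines.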

How the results depend on the processing

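Of the 14 called differences of the 10 genes, 5 were called under every alternative: the 4 rises of *ERCC1* and the combination response of *ERCC6* in HT29. The other 9 were lost under at least 1. Among the 86 differences not called, 74 were called under none and 12 under at least 1. With the replicate block, none of the 14 calls was lost and the counts stayed within 1.5 times. This block gave same-numbered arrays of both lines a common term, and a pairing within each line was not fitted. In the blocked fit *ERCC1* rose by 1.16 with OXA in HT29. With the slide as a block, the addition of Curcumin in HTOXAR3 called 1 gene, *XPC*, and the OXA response of HT29 also called *ERCC3*. The call of *DDB2* for the combination in HT29 was lost.

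With a model of only the compared groups, 1 gene was called for OXA in HT29, 1 for OXA in HTOXAR3, 0 for the basal difference, 2 for the combination in HT29 and 1 in HTOXAR3. These models hold fewer arrays and leave fewer degrees of freedom for the spread. With the mean of all probes, the counts were 2 for OXA in HT29, 1 for OXA in HTOXAR3, 0 for the basal difference, 2 for the combination in HT29 and 1 when Curcumin was added in HTOXAR3, and *ERCC5* reversed to 0.07 for the combination in HTOXAR3, where 3 dim probes enter its mean. The Benjamini-Hochberg adjustment called 2 genes for the basal difference (17% of all names), 2 and 3 for the addition of Curcumin in HT29 and HTOXAR3 (10.2% and 14.2%), and 1 for the difference between lines in the combination response (3.44%). For that difference, a normexp offset of 50 and the restriction to genes well above background in a whole group each called 1 (*DDB2*), and each also called *ERCC1*, 1 gene, when Curcumin was added in HTOXAR3. The processed signal scaled to the 75th percentile called 2 for the basal difference and 1 when Curcumin was added in HTOXAR3. Leaving out 1 array at a time, the counts ran from 2 to 4 for OXA in HT29, 2 to 2 for OXA in HTOXAR3, 0 to 1 for the basal difference, 2 to 4 for the combination in HT29 and 1 to 2 in HTOXAR3, and stayed at 0 elsewhere. Among the alternatives, the share of all gene names called was counted only for the Benjamini-Hochberg adjustment. Under the others, a changed count of the 10 genes therefore cannot be set beside one of all names. The causes of the changes named here were not tested.

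The processed signal moved the median of all gene names by up to -0.203 (OXA in HTOXAR3), and normexp scaled to the 75th percentile by up to -0.157 (the combination in HTOXAR3). Every called difference of the 10 genes kept its sign under both. The *ERCC5* probes not used were well above background on 16, 9 and 1 of the 18 arrays, which limits what they can show.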
